A study of Mus musculus with 12 samples.

Results

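The 9 genes described here encode the parts of the phagocyte NADPH oxidase (Cybb, Cyba, Ncf1 and Ncf4), a related oxidase (Nox4), the superoxide dismutases (Sod1, Sod2 and Sod3) and catalase (Cat). They were chosen by name, with earlier results of these data known. Their Ensembl identifiers were matched to mouse gene symbols in the GRCm38 annotation, and all 9 were found among the 55487 genes of both count tables. The series holds 12 RNA-seq libraries from C57BL/6 mice in 2 experiments, and all samples are labelled as 8 weeks of age and as coming from the limbs. In the first experiment, bone marrow-derived macrophages (BMMs) were grown from leg marrow of female mice after ovariectomy (OVX), the removal of the ovaries that is used as a model of postmenopausal bone loss, or after a sham operation, with 3 libraries each. In the second, mesenchymal stem cells (MSCs), cultured marrow cells that can form bone, were kept alone (MSC), co-cultured with RAW264.7 cells, a mouse macrophage line (MSC+RAW-TW), or co-cultured with such cells after treatment with the bacterial endotoxin lipopolysaccharide (LPS; MSC+RAW-LPS-TW), with 2 libraries each. The sample labels name the co-cultures only. TW, for a transwell membrane between the cells, is part of the names the study gives these groups, but its account of the sequencing does not describe a membrane for these libraries. Neither source gives how many mice stand behind a library.

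The phagocyte NADPH oxidase moves electrons from NADPH across a membrane to oxygen and so makes superoxide. Its catalytic subunit, encoded by Cybb, and the smaller subunit that steadies it, encoded by Cyba, sit in the membrane, and cytosolic subunits, among them those encoded by Ncf1 and Ncf4, join them, with a Rac GTPase, when the cell is activated. Nox4 also needs the Cyba protein, but it is active without the cytosolic subunits and releases mostly hydrogen peroxide. Superoxide is turned into hydrogen peroxide by a dismutase in the cytosol (Sod1), in the mitochondrion (Sod2) or outside the cell (Sod3), and catalase, in the peroxisome, breaks hydrogen peroxide down. In macrophages this chemistry serves the killing of microbes, and superoxide also leaks from the respiratory chain, where Sod2 meets it.

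On GRCm38, the 9 genes lie on 8 chromosomes. The oxidase genes are Cybb at chrX:9435252-9487771 (minus strand), Cyba at chr8:122424776-122432930 (minus), Ncf1 at chr5:134220053-134229625 (minus), Ncf4 at chr15:78244801-78262580 (plus) and Nox4 at chr7:87246096-87398710 (plus). The others are Sod1 at chr16:90220754-90226329 (plus), Sod2 at chr17:13006846-13040063 (plus), Sod3 at chr5:52363791-52371418 (plus) and Cat at chr2:103453849-103485160 (minus).

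The sequences just upstream of the RefSeq start of 4 of these genes are shown first, because they belong to pairs of genes that moved apart in the MSC libraries: Cybb and Cyba, whose proteins form one membrane complex, and Sod1 and Sod2, which do the same reaction in different compartments. Each is the run of 250 bases before that start, on the strand of the gene and 5′ to 3′, from RefSeq on GRCm38.p6. The spans given above are those of the GENCODE annotation, which begin further upstream for Cybb and Sod2, so these windows lie inside them, and the end of the Sod1 window overlaps its span. Capitals mark the letters GGGCGG (a GC box), GAGGAA (a PU.1 core), TTCNNNGAA (a GAS element) and TGANTCA (an AP-1 element), each searched on both strands.
Cybb, chrX:9469325-9469574, minus strand: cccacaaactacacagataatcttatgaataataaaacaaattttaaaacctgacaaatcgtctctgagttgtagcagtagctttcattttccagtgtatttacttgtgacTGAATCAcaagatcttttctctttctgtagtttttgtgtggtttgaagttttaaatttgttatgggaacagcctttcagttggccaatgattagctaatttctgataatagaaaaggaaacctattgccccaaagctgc
Cyba, chr8:122432941-122433190, minus strand: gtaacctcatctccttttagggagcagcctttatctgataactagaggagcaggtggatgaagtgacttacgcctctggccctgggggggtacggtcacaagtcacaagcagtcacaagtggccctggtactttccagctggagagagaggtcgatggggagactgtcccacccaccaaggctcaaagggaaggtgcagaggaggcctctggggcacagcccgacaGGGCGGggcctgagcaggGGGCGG
Sod1, chr16:90220512-90220761, plus strand: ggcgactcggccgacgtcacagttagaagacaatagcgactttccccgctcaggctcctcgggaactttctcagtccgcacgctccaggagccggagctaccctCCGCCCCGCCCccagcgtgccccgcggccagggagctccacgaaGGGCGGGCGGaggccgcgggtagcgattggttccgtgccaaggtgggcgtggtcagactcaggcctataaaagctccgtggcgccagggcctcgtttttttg
Sod2, chr17:13007589-13007838, plus strand: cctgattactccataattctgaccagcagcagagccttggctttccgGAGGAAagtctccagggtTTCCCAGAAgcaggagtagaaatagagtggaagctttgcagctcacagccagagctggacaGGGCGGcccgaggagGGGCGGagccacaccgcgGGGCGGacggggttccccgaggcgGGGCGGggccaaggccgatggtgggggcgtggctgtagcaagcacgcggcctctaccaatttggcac
The Cybb window held 34.0% G and C, 1 AP-1 match and no GC box. The Sod2 window held 63.6% G and C, with 4 GC boxes, 1 PU.1 core and 1 GAS element, and the Sod1 window held 66.4% with 4 GC boxes that overlap in pairs and, not in capitals, the TATA box letters TATAAA at 37 bases before the start, which 12.4% of the windows hold and none of the other members' windows does. The Cyba window held 60.0% with 2 GC boxes. Among 32851 RefSeq windows of the same length, 32.7% held a GC box, 23.3% the PU.1 letters, 7.02% the GAS letters and 6.75% the AP-1 letters, each on either strand. The kappa B motif, which 0.673% of the windows hold, was found in none of the 7 windows that could be matched to a member, namely these 4 and those of Ncf1, Nox4 and Cat. No window was matched for Ncf4 and Sod3. A match is a run of letters and was not tested as a binding site.

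Library sizes ran from 17012923 to 45367105 counts. The chi-square between sham replicates 2 and 3 was 2.58 times its sampling value at low counts and 2.78 times at high counts. For both MSC+RAW-TW libraries it was 3.07 and 3.36 times. These differences exceeded sampling noise but stayed nearly flat over the range of counts, so each pair was summed and taken as 1 sample. This leaves 3 OVX, 2 sham, 2 MSC, 1 MSC+RAW-TW and 2 MSC+RAW-LPS-TW samples, and the lone MSC+RAW-TW sample is assumed to vary like the others. Libraries differed, too, with the GC content of genes, and Spearman's rho of a gene's deviation against its GC content lay between -0.545 and -0.220 in OVX samples and 0.310 and 0.505 in sham samples. It was 0.367 in the MSC+RAW-TW sample and between -0.221 and -0.0437 in the other MSC samples. All 12 macrophage markers were above 1 CPM in every library of every group, including those labelled as MSCs, in which Adgre1 (the macrophage antigen F4/80) stood at 548 CPM in MSCs kept alone. Of 13 stromal markers, 11 were above 1 CPM in all libraries of MSCs kept alone, from Col1a2 at 903 CPM to Lepr at 1.90 CPM, while Lum and Thy1 stood at 0.392 and 0.371 CPM, and 12 were above 1 CPM in all sham and 13 in all OVX libraries. Col1a1 stood at 1971 CPM in OVX and 1993 CPM in sham BMMs, and at 457 CPM in MSCs kept alone. The MSC and the BMM libraries thus hold markers of both kinds, and their labels are used as names. In such bulk libraries, fewer cells of a type and less RNA per cell cannot be told apart.

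Levels are given as CPM, counts scaled to a common library size with edgeR's TMM method. A gene is said to have changed when edgeR's quasi-likelihood test over all genes gave an adjusted p of at most 0.05, and log2 fold changes are given with their standard error (SE).

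**Figure D1:**
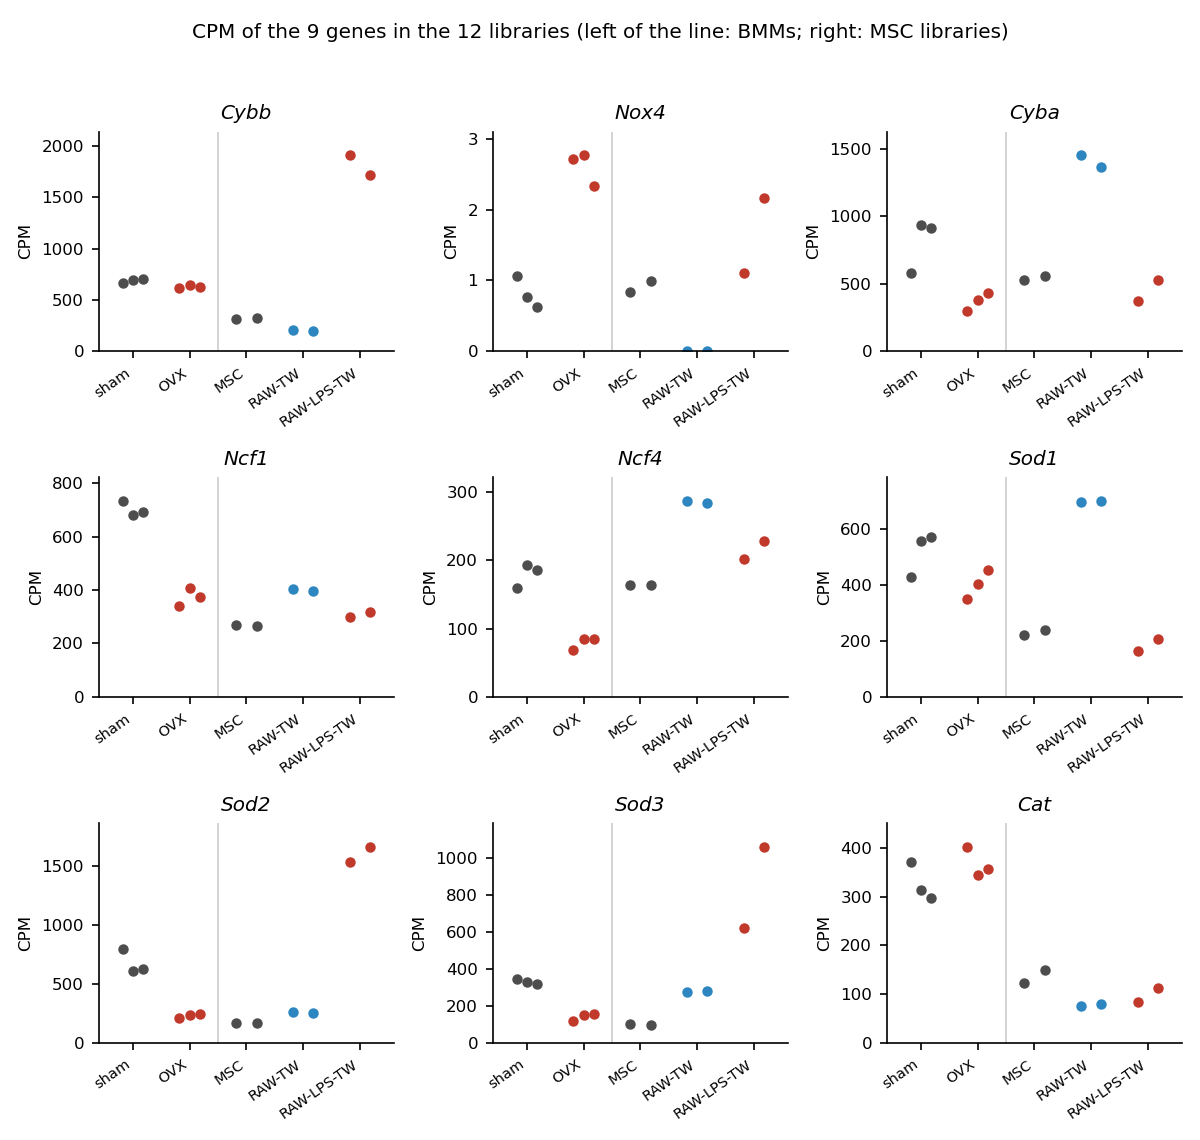
CPM of each of the 9 genes (vertical axis, linear from 0) in each of the 12 libraries (points), by group. The left of the gray line holds the BMM libraries and the right the MSC libraries, which were normalized separately; RAW-TW and RAW-LPS-TW stand for MSC+RAW-TW and MSC+RAW-LPS-TW. Sod2, Sod3 and Cybb stand highest in MSC+RAW-LPS-TW, Cyba and Sod1 in MSC+RAW-TW, and Nox4 in OVX.

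The first comparison asks how these genes differ between the OVX and the sham BMM libraries. In OVX BMMs, RNA of the mitochondrial dismutase Sod2 fell to a level 3.10-fold below sham, and that of the extracellular dismutase Sod3 to one 2.41-fold below. The oxidase subunit genes Cyba, Ncf1 and Ncf4 fell as well, by between 1.91-fold and 2.21-fold, whereas Cybb, the catalytic subunit, was not called. Nox4 rose 2.94-fold from a very low level. Of the 9 genes, 5 were lower and 1 was higher in OVX, while 5.83% of the 16768 genes tested were lower and 7.25% were higher (13.1% changed in all). At a fold change of 2 or more as well, 5 of the 9 genes and 8.46% of all genes passed. The median log2 fold change of the 9 genes was -0.93, and that of all genes tested was -0.01. Since the genes were chosen with earlier results known, these shares and medians describe the list and were not tested.

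Cybb had 618, 640 and 628 CPM in OVX replicates 1 to 3, and 668, 694 and 706 CPM in sham replicates 1 to 3. The sham libraries were all slightly above the OVX libraries. The log2 fold change was -0.13 (SE 0.17, adjusted p = 0.636, edgeR). Cybb is a gene of low GC content (43.2% of its exons), and with the trends that follow GC content and exon length taken out of each library its log2 fold change was -0.76 (adjusted p = 0.0443). Nox4, the other catalytic gene, had 2.71, 2.77 and 2.34 CPM in OVX and 1.07, 0.760 and 0.630 CPM in sham. These levels rest on between 12 and 106 counts in each library, and the groups did not overlap. It rose by 1.56 (SE 0.36, adjusted p = 0.0277) on the log2 scale. Its exons hold 43.3% G and C, and its value with the trends removed was 0.92 (adjusted p = 0.141), which does not pass.

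Cyba, whose protein pairs with both catalytic subunits, stood at 294, 378 and 430 CPM in OVX and at 580, 937 and 912 CPM in sham. Every sham library was above every OVX library, and sham replicate 1 stood well below the summed sample of sham replicates 2 and 3. The log2 fold change was -1.04 (SE 0.25, adjusted p = 0.0324). Cyba has the highest GC content of the 9 genes (58.8%), and with the trends removed its value was -0.55 (adjusted p = 0.125).

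The cytosolic subunit gene Ncf1, the organizer that brings the cytosolic subunits to the membrane, gave 341, 410 and 373 CPM in OVX and 734, 681 and 691 CPM in sham. Its log2 fold change was -0.93 (SE 0.17, adjusted p = 0.0146). Ncf4, which binds phosphoinositides of the phagosome, gave 68.2, 85.0 and 84.5 CPM in OVX and 159, 193 and 185 CPM in sham. It fell by 1.15 (SE 0.19, adjusted p = 0.00996) on the log2 scale. Both genes were lower in all OVX libraries. With the trends removed they fell by 0.63 (adjusted p = 0.0493) and 0.81 (adjusted p = 0.0215). Of the exon length of Ncf1, 11.1% (408 bases) is shared with Gtf2ird2 on the opposite strand, and the strand setting of the counting is not stated. Gtf2ird2 had at most 503 counts in a BMM library, against at least 10755 for Ncf1.

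Among the dismutases, Sod1 showed 350, 403 and 454 CPM in OVX and 429, 557 and 573 CPM in sham. The groups overlap at OVX replicate 3 and sham replicate 1, and the log2 fold change was -0.32 (SE 0.20, adjusted p = 0.338). Sod2 showed 209, 236 and 243 CPM in OVX and 794, 610 and 624 CPM in sham. The lowest sham library was thus far above the highest OVX library. Sod2 fell by 1.63 (SE 0.19, adjusted p = 0.00491) on the log2 scale. Sod3 showed 118, 147 and 153 CPM in OVX and 345, 327 and 319 CPM in sham, also without overlap, and fell by 1.27 (SE 0.19, adjusted p = 0.00798). The falls of Sod2 and Sod3 with the trends removed were 1.47 (adjusted p = 0.00814) and 1.07 (adjusted p = 0.0101).

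Catalase RNA stood at 403, 345 and 357 CPM in OVX and at 370, 314 and 297 CPM in sham. The groups overlapped, with a log2 fold change of 0.12 (SE 0.19, adjusted p = 0.720).

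Leaving out an OVX library took calls away while the fold changes of the genes concerned stayed of similar size, and leaving out a sham library took away none of the 6. Without OVX replicate 2, only Sod2 among the 9 genes passed, when 309 of all genes (1.9%) did. Sod3 (-1.30, adjusted p = 0.0531), Ncf4 (-1.19, adjusted p = 0.0617) and Ncf1 (-0.99, adjusted p = 0.0733) then just missed the threshold, and Cyba (-1.05, adjusted p = 0.122) and Nox4 (1.52, adjusted p = 0.114) missed it by more. Without OVX replicate 1 the 3 genes Ncf4, Sod2 and Sod3 passed, beside 4.52% of all genes, with Ncf1 at -0.87 (adjusted p = 0.0557), and without OVX replicate 3 Nox4 did not pass (1.63, adjusted p = 0.0523). Sod2 passed in each of the 15 alternative analyses, with log2 fold changes from -1.67 to -1.44.

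**Figure D2:**
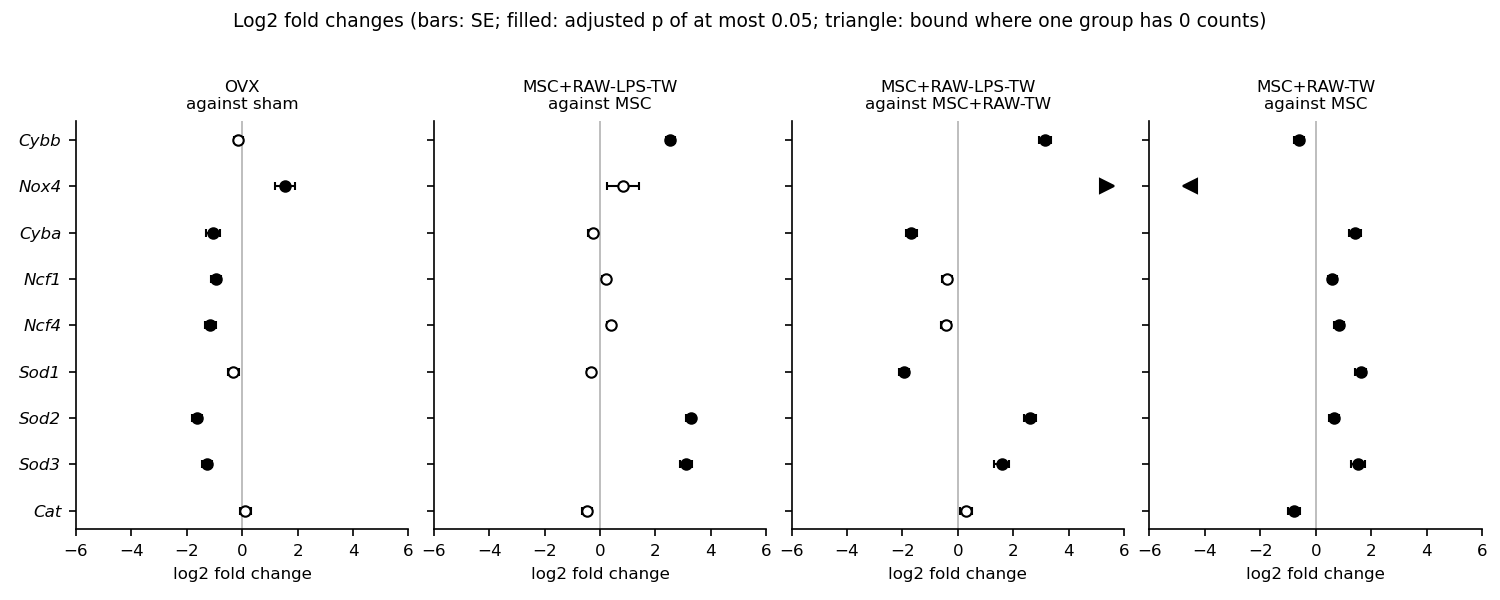
Log2 fold changes (horizontal axis) of the 9 genes in the 4 comparisons, with bars of 1 SE and filled circles for an adjusted p of at most 0.05. Triangles show the bound for Nox4 where MSC+RAW-TW had 0 counts. In OVX against sham, 5 genes lie left of 0 and filled, and in MSC+RAW-LPS-TW against MSC the filled genes are Cybb, Sod2 and Sod3.

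The comparison of the LPS co-culture with MSCs alone asks how co-culture with LPS-treated RAW264.7 cells alters these genes in the MSC libraries. The largest rises among the 9 genes in MSC+RAW-LPS-TW against MSC were those of Sod2 (9.67-fold), Sod3 (8.6-fold) and Cybb (5.78-fold). By edgeR and by DESeq2, 0 of the 9 genes fell (1, Cat, at an unadjusted p under 0.05), and Cyba, Ncf1, Ncf4, Nox4, Sod1 and Cat were not called. With every library taken as its own replicate and the series of numbers in the column names as a term, 5 of the 9 genes and 28.3% of all genes in that fit changed, as Ncf4 rose (0.39, adjusted p = 0.0248) and Cat fell (-0.48, adjusted p = 0.00983) as well. That fit counts both near-identical MSC+RAW-TW libraries as separate samples. The 3 rises among 9 genes stand beside 11.1% of the 20499 genes tested that were higher and 9.85% that were lower (20.9% changed in all). All 3 were past a fold change of 2, as were 10.9% of all genes. The median log2 fold change was 0.39 for the 9 genes and -0.01 for all genes.

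The other comparisons set both co-cultures against each other and the untreated co-culture against MSCs alone. Against MSC+RAW-TW, the MSC+RAW-LPS-TW libraries held more Cybb (8.81-fold), Sod2 (6.08-fold) and Sod3 (2.98-fold) and at least 41.3-fold more Nox4, and less Sod1 (3.85-fold) and Cyba (3.21-fold). Thus 4 of the 9 genes were higher and 2 lower, where 21.3% of all genes tested were higher and 18.9% lower (40.2% changed in all), and all 6 were past a fold change of 2, as were 27.4% of all genes. In the fit with the number series, which takes the near-identical MSC+RAW-TW libraries as 2 samples, all 9 passed, beside 58.2% of all genes, with Ncf1 and Ncf4 lower (-0.37, adjusted p = 0.0159, and -0.41, adjusted p = 0.00970) and Cat higher (0.32, adjusted p = 0.0436). Ncf1 and Ncf4 gave -0.03 each in that comparison with the trends removed (adjusted p = 0.890 and 0.914). In MSC+RAW-TW against MSC, Sod1 (3.08-fold), Sod3 (2.88-fold), Cyba (2.67-fold), Ncf4 (1.77-fold), Sod2 (1.59-fold) and Ncf1 (1.52-fold) rose, and Cat (1.72-fold), Cybb (1.52-fold) and Nox4 (at least 23.1-fold) fell. These are 6 rises and 3 falls, beside 13.8% of all genes higher and 14.8% lower (28.6% changed in all), and 4 of the 9 genes and 16.4% of all genes were past a fold change of 2. All 3 comparisons share samples, so their values are given side by side and were not compared with each other. The median of all genes was 0.14 in the former and -0.13 in the latter comparison on the log2 scale, and the values of the 9 genes are to be read against it.

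Cybb had 309 and 318 CPM in MSC, 203 and 200 CPM in MSC+RAW-TW, and 1911 and 1717 CPM in MSC+RAW-LPS-TW. The last group was far above the other two. The log2 fold change was 2.53 (SE 0.16, adjusted p = 1.06e-08) against MSC and 3.14 (SE 0.22, adjusted p = 4.69e-08) against MSC+RAW-TW. In MSC+RAW-TW against MSC it fell by 0.61 (SE 0.19, adjusted p = 0.0255). With the trends removed the value was 0.12 (adjusted p = 0.616). Without MSC replicate 1 or MSC replicate 2 the fall was of similar size but did not pass (-0.63, adjusted p = 0.171, and -0.59, adjusted p = 0.216). The rises in MSC+RAW-LPS-TW were 2.50 and 2.37 with the trends removed.

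Nox4 had 0.837 and 0.998 CPM in MSC and 1.11 and 2.17 CPM in MSC+RAW-LPS-TW, with between 34 and 68 counts in each library. The log2 fold change was 0.83 (SE 0.58, adjusted p = 0.374). Both MSC+RAW-TW libraries held 0 counts of Nox4. A count of 0 there allows up to 0.0397 CPM, taken as 3 counts over both libraries, so Nox4 was at least 23.1-fold higher in MSC and at least 41.3-fold higher in MSC+RAW-LPS-TW. These bounds cover counting error only.

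Cyba had 528 and 554 CPM in MSC, 1454 and 1369 CPM in MSC+RAW-TW, and 371 and 529 CPM in MSC+RAW-LPS-TW. The untreated co-culture stood above both other groups, which overlapped. Its log2 fold changes were 1.41 (SE 0.20, adjusted p = 0.000317) for MSC+RAW-TW against MSC and -1.68 (SE 0.20, adjusted p = 1.39e-05) for MSC+RAW-LPS-TW versus MSC+RAW-TW. Against MSC, the LPS co-culture gave -0.27 (SE 0.17, adjusted p = 0.332). Without MSC+RAW-LPS-TW replicate 3 this value was -0.54 (adjusted p = 0.00286), in a fit where each co-culture is 1 sample and the spread comes from the MSC pair alone.

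Ncf1 had 271 and 266 CPM in MSC, 404 and 395 CPM in MSC+RAW-TW, and 301 and 318 CPM in MSC+RAW-LPS-TW. It rose by 0.60 (SE 0.18, adjusted p = 0.0183) in MSC+RAW-TW against MSC, a rise of 0.28 (adjusted p = 0.232) with the trends removed and one that did not pass without MSC replicate 1 (0.61, adjusted p = 0.146) or 2 (0.59, adjusted p = 0.174). Against MSC, the LPS co-culture gave 0.20 (adjusted p = 0.393), and against MSC+RAW-TW it gave -0.40 (adjusted p = 0.0817). Gtf2ird2, the overlapping gene, had at most 1022 counts in an MSC library. Ncf4 had 164 CPM in both MSC libraries, 287 and 284 CPM in MSC+RAW-TW, and 202 and 229 CPM in MSC+RAW-LPS-TW. It rose by 0.83 (SE 0.18, adjusted p = 0.00311) in MSC+RAW-TW. The LPS co-culture gave 0.39 (SE 0.15, adjusted p = 0.0796) against MSC, which passed with the trends removed (0.46, adjusted p = 0.0256), and -0.44 (adjusted p = 0.0625) against MSC+RAW-TW.

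Sod1 had 223 and 240 CPM in MSC, 696 and 701 CPM in MSC+RAW-TW, and 163 and 207 CPM in MSC+RAW-LPS-TW. As CPM per kb of exon it was the highest of the 3 dismutases in MSC and MSC+RAW-TW (58.3 and 176) and the lowest in MSC+RAW-LPS-TW (46.7). Its log2 fold changes were 1.62 (SE 0.19, adjusted p = 0.000130) for MSC+RAW-TW against MSC, -1.95 (SE 0.19, adjusted p = 1.47e-06) for MSC+RAW-LPS-TW versus MSC+RAW-TW, and -0.32 (SE 0.16, adjusted p = 0.181) for MSC+RAW-LPS-TW against MSC. Without MSC+RAW-LPS-TW replicate 3 the last of these was -0.50 (adjusted p = 0.00880), again with the spread of the MSC pair alone.

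Sod2 had 165 and 166 CPM in MSC, 261 and 255 CPM in MSC+RAW-TW, and 1539 and 1668 CPM in MSC+RAW-LPS-TW. Its rise in the LPS co-culture was 3.27 (SE 0.16, adjusted p = 7.65e-10) against MSC and 2.60 (SE 0.21, adjusted p = 2.23e-07) against MSC+RAW-TW on the log2 scale, and it moved little with the trends removed (3.26 and 2.70). The smaller rise of 0.67 (SE 0.18, adjusted p = 0.0115) in MSC+RAW-TW against MSC kept its size but did not pass without MSC replicate 1 (0.66, adjusted p = 0.147) or 2 (0.68, adjusted p = 0.141).

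Sod3 had 102 and 93.1 CPM in MSC, 272 and 279 CPM in MSC+RAW-TW, and 620 and 1060 CPM in MSC+RAW-LPS-TW. The levels of the 3 groups were set apart in this order, and the LPS libraries differed most from one another. The log2 fold changes were 3.10 (SE 0.22, adjusted p = 4.17e-08), 1.58 (SE 0.27, adjusted p = 0.000267) and 1.53 (SE 0.24, adjusted p = 0.000481) for MSC+RAW-LPS-TW against MSC, MSC+RAW-LPS-TW versus MSC+RAW-TW and MSC+RAW-TW against MSC.

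Cat had 122 and 150 CPM in MSC, 75.7 and 79.3 CPM in MSC+RAW-TW, and 83.7 and 112 CPM in MSC+RAW-LPS-TW. MSC libraries were above all others. The fall in MSC+RAW-TW was 0.78 (SE 0.22, adjusted p = 0.0143) on the log2 scale, and it did not pass without MSC replicate 2 (-0.63, adjusted p = 0.112). The LPS co-culture gave -0.48 (SE 0.17, adjusted p = 0.0623) against MSC and 0.31 (SE 0.21, adjusted p = 0.264) against MSC+RAW-TW. Without MSC+RAW-LPS-TW replicate 3 the value against MSC was -0.70 (adjusted p = 0.00303), and without MSC+RAW-LPS-TW replicate 2 that against MSC+RAW-TW was 0.51 (adjusted p = 0.0268), both with the spread of the MSC pair alone.

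The cell type markers moved in the same comparisons. The 12 macrophage markers summed to between 55462 and 60438 CPM in sham and between 41174 and 45737 CPM in OVX libraries. Of them, 6 fell in OVX while 1, Mrc1, rose, beside 5.83% of all genes tested lower and 7.25% higher. With the trends removed, 3 were lower and 1 was higher, and 3.92% of all genes were lower. In the MSC libraries the sum was 27330 to 27574 CPM for MSC, 34037 to 34539 CPM for MSC+RAW-TW and 14991 to 15699 CPM for MSC+RAW-LPS-TW. Most of each sum was Lyz2, the lysozyme gene, which stood at 49982 CPM in sham, 37736 CPM in OVX, 21659 CPM in MSC, 26469 CPM in MSC+RAW-TW and 9586 CPM in MSC+RAW-LPS-TW. The median over the 12 markers was 631, 369, 577, 505 and 501 CPM in the same order. Within this list, Adgre1 rose from 548 CPM in MSC to 1471 CPM in MSC+RAW-LPS-TW, while Mrc1 fell from 589 to 4.01 CPM and Cd68 from 565 to 80.1 CPM. The 13 stromal markers summed to between 2694 and 2827 CPM in MSC, between 2169 and 2177 CPM in MSC+RAW-TW and between 4122 and 4148 CPM in MSC+RAW-LPS-TW. From MSC to MSC+RAW-LPS-TW, Dcn, a matrix proteoglycan, rose from 7.58 to 194 CPM, while Cxcl12 went from 341 to 195 CPM. In that comparison 7 of the 13 were higher, 1 was lower and 5 did not pass, beside 11.1% of all genes higher and 9.85% lower. In the BMM libraries the stromal markers summed to between 7336 and 7940 CPM in sham and between 8147 and 9050 CPM in OVX. Postn stood at 194 CPM in sham and 719 CPM in OVX. The median over the 13 went the other way, from 95.6 CPM in sham to 74.0 CPM in OVX. Of the 13, 2 were called higher and 0 lower (1 lower with the trends removed), beside 7.25% and 5.83% of all genes. The 9 neutrophil markers summed to between 808 and 944 CPM in sham and between 1201 and 1334 CPM in OVX. Most of this was S100a8 (327 CPM in sham and 472 CPM in OVX) and S100a9 (393 and 631 CPM). The median over the 9 went the other way, from 14.6 CPM in sham to 11.9 CPM in OVX. Of the 9, 1 was called higher and 0 lower, beside 7.25% and 5.83% of all genes. In the MSC libraries the 9 neutrophil markers summed to between 11.7 and 34.7 CPM without LPS, with 5 of them at 0 in all libraries of MSC and 5 in those of MSC+RAW-TW. They summed to between 370 and 557 CPM in MSC+RAW-LPS-TW, with 3 at 0. In that group S100a8 alone stood at 341 and 517 CPM and Camp at 28.7 and 39.8 CPM, and the median over the 9 markers was 0.030 CPM. The 4 B cell markers summed to between 19.2 and 22.2 CPM in sham and between 8.24 and 9.24 CPM in OVX, and the erythroid and T cell markers to no more than 5.26 and 1.52 CPM in any library. The part of these markers in the results for the 9 genes was not tested.

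Between genes, levels were compared as CPM per kb of exon, which depends on the annotated exon length (10.008 kb for Sod2, 1.039 kb for Cyba). On this scale Cyba was the highest of the 9 genes in all 5 groups, from 354 ± 66.2 (SD, n = 3) in OVX to 1359 in MSC+RAW-TW, and Nox4 the lowest, at no more than 0.308 ± 0.0276 (SD, n = 3). In OVX, Cat at 141 ± 11.7 led a run in which Cybb (108 ± 1.90), Ncf1 (102 ± 9.36) and Sod1 (101 ± 13.1) did not differ beyond their spread (SD, n = 3). In sham, Ncf1 followed Cyba at 194 ± 9.22, and Cat, Sod1 and Cybb did not differ beyond their spread (SD, n = 2). In MSC+RAW-LPS-TW the order was Cyba (434 ± 108), Cybb (312 ± 23.6), Sod3 (225 ± 83.2) and Sod2 (160 ± 9.10), and each of these genes overlapped the next within its spread (SD, n = 2).

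Ratios of 2 genes within a library, on the same scale, show how the balance moved and do not depend on the library size. Sod2 to Sod1 was 0.237, 0.232 and 0.212 in OVX and 0.735, 0.435 and 0.432 in sham. It was 0.294 and 0.275 in MSC, 0.149 and 0.144 in MSC+RAW-TW, and 3.73 and 3.20 in MSC+RAW-LPS-TW, the group in which Sod2 exceeded Sod1 on this scale. As CPM without the exon length, Sod2 also exceeded Sod1 in sham replicates 1 to 3 (794, 610 and 624 against 429, 557 and 573 CPM). Sod3 to Sod1 was between 0.357 and 0.387 in OVX and between 0.592 and 0.856 in sham, and it went from at most 0.486 in MSC and MSC+RAW-TW to 4.03 and 5.44 in MSC+RAW-LPS-TW. Cybb to Cyba was 0.376, 0.303 and 0.261 in OVX and 0.206, 0.132 and 0.138 in sham. It was 0.104 and 0.103 in MSC, 0.0250 and 0.0261 in MSC+RAW-TW, and 0.921 and 0.580 in MSC+RAW-LPS-TW. None of these 3 ratios overlapped between OVX and sham. They were not tested, and Cybb and Cyba lie at the lowest and the highest GC content of the 9 genes.

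**Figure D3:**
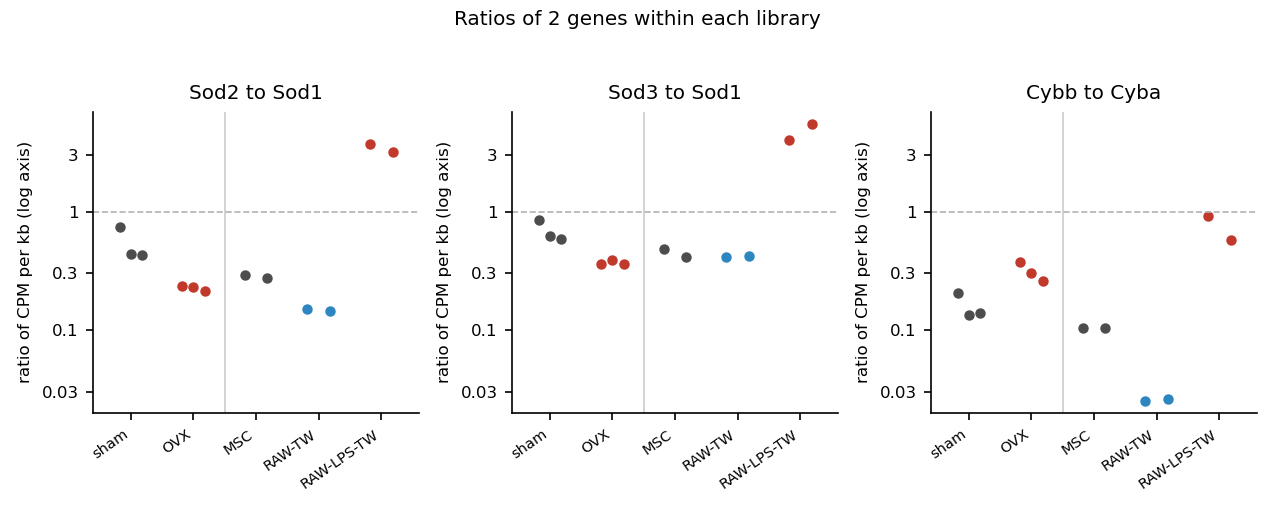
Ratio of CPM per kb of exon (log axis) of Sod2 to Sod1, Sod3 to Sod1 and Cybb to Cyba in each library (points) by group, with BMMs left and MSC libraries right of the gray line. The dashed line marks a ratio of 1. Sod2 to Sod1 and Sod3 to Sod1 lie above 1 in both MSC+RAW-LPS-TW libraries and below it in all others.

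Of 8 partners and regulators of the oxidase, 1 was lower and 1 higher in OVX BMMs, beside 5.83% and 7.25% of all genes tested. Rac2, the Rac GTPase of blood cells, fell from 1170, 1522 and 1487 CPM in sham to 299, 351 and 361 CPM in OVX (log2 fold change -2.0, SE 0.19, adjusted p = 0.00301). Rap1a, a small GTPase found with the membrane subunits, rose by 1.10 (SE 0.27, adjusted p = 0.0329), a value of 0.33 (adjusted p = 0.30) with the trends removed. Rac1, the widely expressed relative of Rac2, gave -0.23 (SE 0.30, adjusted p = 0.650).

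In MSC+RAW-LPS-TW against MSC, 2 of these 8 genes were higher and 1 was lower. Of all genes tested, 20.9% changed in that comparison, 40.2% in MSC+RAW-LPS-TW versus MSC+RAW-TW and 28.6% in MSC+RAW-TW against MSC. Nrros, whose protein lowers the amount of the catalytic subunit, had 108 and 119 CPM in MSC, 150 CPM in both MSC+RAW-TW libraries, and 20.4 and 21.1 CPM in MSC+RAW-LPS-TW. It fell by 2.45 (SE 0.16, adjusted p = 1.35e-08) against MSC and by 2.89 (SE 0.18, adjusted p = 1.18e-08) against MSC+RAW-TW. Rac2 rose by 1.06 (adjusted p = 9.28e-05) and Prkcd, a kinase that phosphorylates the organizer subunit, by 0.74 (adjusted p = 0.00310) against MSC, and Rac1 gave 0.29 (adjusted p = 0.200). Against MSC+RAW-TW, 3 were higher and 2 lower, with Prkcd up by 0.87 (adjusted p = 0.00297), Rac1 up by 0.73 (adjusted p = 0.00520) and Poldip2, which binds the Cyba protein, down (log2 fold change -0.78, adjusted p = 0.00370), while Rac2 gave -0.19 (adjusted p = 0.434). In MSC+RAW-TW against MSC, 3 were higher and 0 lower by edgeR and by DESeq2 (2 lower at an unadjusted p under 0.05), namely Rac2 (1.25, adjusted p = 0.000308), Poldip2 (0.93, adjusted p = 0.00221) and the proton channel Hvcn1 (0.87, adjusted p = 0.0129). Rac1 gave -0.44 (adjusted p = 0.0804) there. With the trends removed Hvcn1 gave 0.46 (adjusted p = 0.153) in that comparison, while Rap1a rose by 1.09 (adjusted p = 0.00367) and Cybc1, needed for the membrane subunits to be made, fell by 0.64 (adjusted p = 0.0223). In MSC+RAW-LPS-TW versus MSC+RAW-TW, Rap1a then fell by 0.75 (adjusted p = 0.0130).

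The other oxidases of the family and their helper proteins were nearly absent. The levels of 2 of them were near that of Nox4 in sham (0.882 CPM). Nox1 had 0.237 CPM in OVX and 0.740 CPM in sham, and Duoxa1 had 1.03 and 0.813 CPM. Of these 8 genes, only 2 in each experiment passed the filter on low counts, and edgeR called 0 of them in each of the 4 comparisons. At an unadjusted p under 0.05 there was 1 in OVX against sham and 1 in MSC+RAW-LPS-TW versus MSC+RAW-TW, and DESeq2 called 1 in the latter. The fitted folds of such low genes are not given.

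Of 12 peroxide-removing enzymes, 11 were tested. Of all genes tested, 13.1% changed in OVX against sham and 20.9% in MSC+RAW-LPS-TW against MSC. The shares were 40.2% in MSC+RAW-LPS-TW versus MSC+RAW-TW and 28.6% in MSC+RAW-TW against MSC. In OVX, 1 rose and 1 fell, Gpx8, a glutathione peroxidase of the endoplasmic reticulum, by 0.63 (adjusted p = 0.0470; 0.10 with the trends removed) and Prdx5, a peroxiredoxin found in mitochondria and peroxisomes, by 1.11 (SE 0.17, adjusted p = 0.00876). Prdx5 had 1026, 1129 and 1147 CPM in sham and 471, 542 and 503 CPM in OVX. In MSC+RAW-LPS-TW against MSC, 4 rose and 2 fell. Prdx5 rose from 384 and 374 CPM to 2011 and 2104 CPM (2.44, SE 0.16, adjusted p = 1.26e-08), Prdx2 and Prdx6 rose by 0.74 (adjusted p = 0.00215) and 0.65 (adjusted p = 0.00505), and Prdx1, a cytosolic peroxiredoxin, fell by 0.71 (adjusted p = 0.00311). Against MSC+RAW-TW, 2 rose and 5 fell, led by Gpx1, the main cytosolic glutathione peroxidase, which fell by 2.0 (SE 0.20, adjusted p = 1.84e-06), Prdx5, which rose by 1.82 (adjusted p = 5.08e-06), and the mitochondrial Prdx3, which rose by 1.51 (adjusted p = 8.35e-05). In MSC+RAW-TW against MSC, 8 rose and 1 fell, with Gpx1 up by 1.49 (SE 0.20, adjusted p = 0.000221), Prdx6 by 1.04 (adjusted p = 0.000765) and Prdx3 down by 1.5 (SE 0.22, adjusted p = 0.000358). With the trends removed, the rises there of Gpx4, Gpx7 and Prdx5 did not pass (-0.02, 0.52 and 0.16, the lowest adjusted p being 0.0838).

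Of 5 genes for copper delivery and catalase import, 1 rose in OVX, the copper exporter Atp7a (0.85, SE 0.21, adjusted p = 0.0354, and 0.06 with the trends removed). In that comparison 7.25% of all genes tested rose. Of all genes, 28.6% changed in MSC+RAW-TW against MSC, 40.2% in MSC+RAW-LPS-TW versus MSC+RAW-TW and 20.9% in MSC+RAW-LPS-TW against MSC. In MSC+RAW-TW against MSC, Ccs, the copper chaperone that loads Sod1, rose from 20.1 and 21.5 CPM to 49.0 and 48.6 CPM (1.26, SE 0.20, adjusted p = 0.000566), and the copper chaperone Atox1 rose by 1.91 (SE 0.23, adjusted p = 0.000162), while Atp7a fell by 1.87 (adjusted p = 0.000200). In MSC+RAW-LPS-TW versus MSC+RAW-TW, Ccs fell by 1.33 (adjusted p = 0.000111) and Atox1 by 1.57 (adjusted p = 8.59e-05), and Atp7a rose by 2.43 (adjusted p = 2.60e-06). Against MSC, the LPS co-culture gave -0.07 (adjusted p = 0.929) for Ccs, and 1 gene rose (Atp7a, 0.56, adjusted p = 0.0359) and 1 fell (the copper importer Slc31a1, by 0.48, adjusted p = 0.0460).

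**Figure D4:**
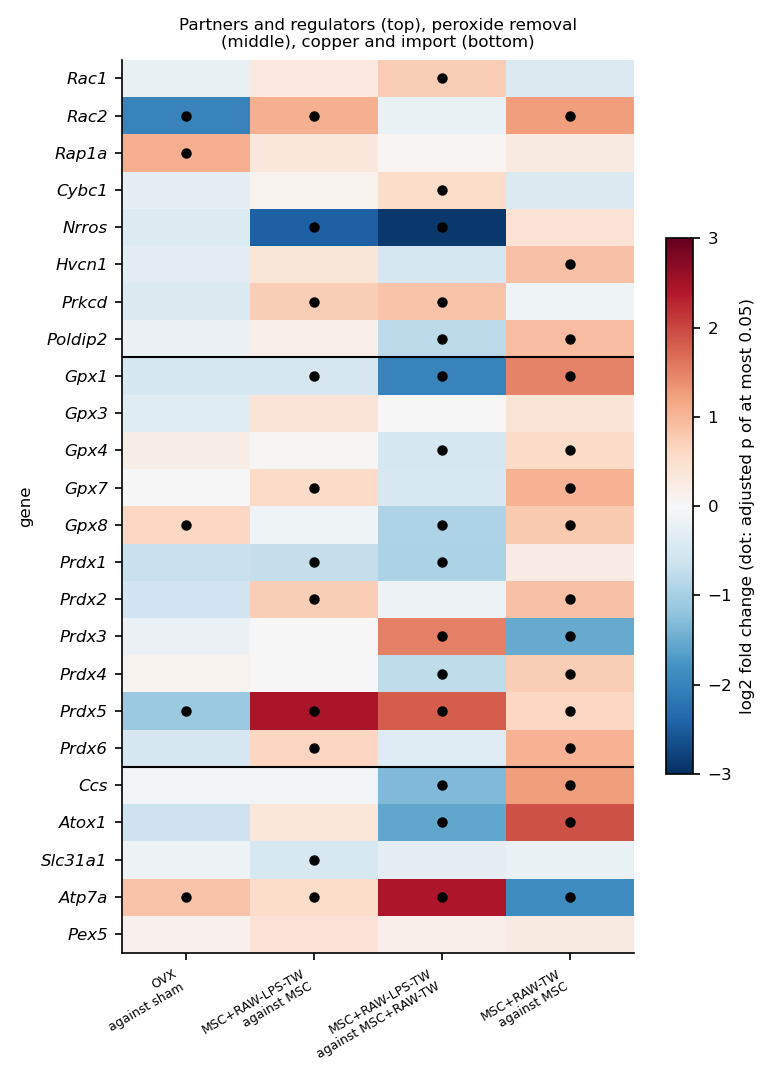
Log2 fold changes (color) of the tested partners and regulators of the oxidase, peroxide-removing enzymes, and copper delivery and catalase import genes (rows) in the 4 comparisons (columns). A dot marks an adjusted p of at most 0.05. Nrros is blue in both comparisons of the LPS co-culture, and Prdx5 is red in both and blue in OVX against sham.

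The genes whose log2 CPM followed 5 of the members most closely over the 10 samples were found among 9762 genes with at least 5 CPM in both experiments. The 10 samples share 2 tables that were normalized separately and hold groups of 1 to 3 samples, so Pearson's r is a description. For Sod2 they were Prdx5 (r = 0.993), Mmp9 (0.984), a secreted protease, and Acod1 (0.974), the enzyme that makes itaconate. For Sod3 they were Slpi (0.978), a secreted protease inhibitor, Hp (0.976), which encodes haptoglobin, and Tnip1 (0.97). For Cybb they were Adamts4 (0.992), Zfp811 (0.986) and Ccbe1 (0.984), for Nox4 Gpcpd1 (0.959), Qtrt2 (0.956) and Zbed3 (0.953), and for Cat Rsl24d1 (0.988), Ccnq (0.985) and Med4 (0.985).

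The trends on GC content and length bear unevenly on the 9 genes. Removing them moved Cybb and Nox4, the genes of lowest GC content, downward in OVX against sham and Cyba, that of highest GC content, upward. With the trends removed, 5 of the 9 genes and 3.92% of all genes were lower in OVX, with Cybb in the place of Cyba, and Nox4 no longer passed. The falls of Sod2 and Sod3 moved by 0.16 and 0.20, that of Cyba by 0.49, and Sod1 moved by 0.02. In MSC+RAW-LPS-TW against MSC no value of the 9 genes moved by more than 0.07.

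**Figure D5:**
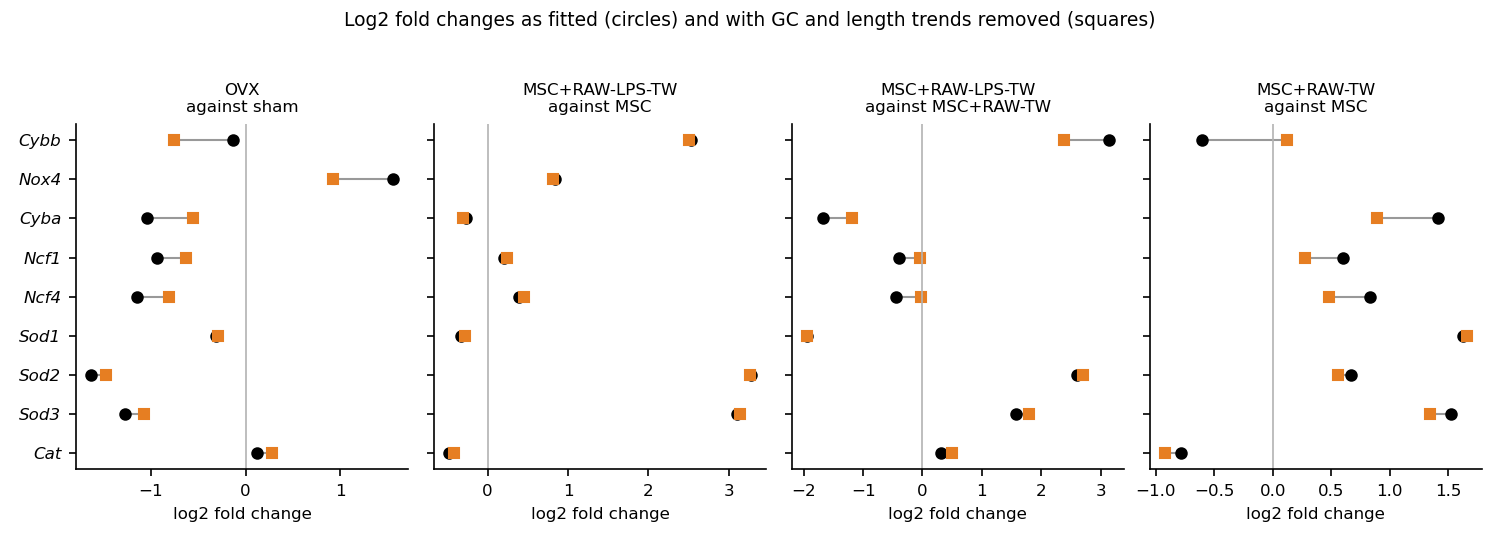
Log2 fold changes (horizontal axis, scaled separately in each panel) of the 9 genes in the 4 comparisons, as fitted (circles) and with the trends that follow GC content and exon length taken out (squares); Nox4 is left out where MSC+RAW-TW had 0 counts. Cybb moves from -0.13 to -0.76 in OVX against sham and from -0.61 to 0.12 in MSC+RAW-TW against MSC.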

How the data were processed

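The members and the gene lists were chosen with earlier results of these data known. Raw counts per gene and library were deposited by the authors, neither normalized nor filtered. Per the methods of the study, poly(A) RNA was made into directional libraries and sequenced in read pairs, reads were trimmed with Trim Galore 0.6.7, mapped to GRCm38 with HISAT2 2.1.0 and counted with featureCounts 2.0.1; the strand setting of the counting is not given in the sources used here. GENCODE M21 named 55141 of the 55487 identifiers. All 12 libraries were used. Both MSC+RAW-TW columns carry the same number and the MSC+RAW-LPS-TW columns carry the numbers 2 and 3, so these columns were matched to their groups only, and the LPS libraries are called by these numbers.

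Counts were analyzed with edgeR 4.0.16 in R 4.3.3 (TMM, filterByExpr, quasi-likelihood F-test, two-sided, Benjamini-Hochberg over all genes tested), 1 fit per experiment. Libraries of a group whose chi-square against sampling rose by no more than 2 times from low to high counts (over genes with at least 20 counts) were summed: the rise was 1.08 for sham replicates 2 and 3 and 1.09 for MSC+RAW-TW, and between 4.65 and 26.7 for the other pairs. The labels do not say that replicates are separate animals or cultures (captions of the study speak of independent experiments in general), so p may measure technical spread between samples only. The trends were removed as lowess curves (span 0.3) on GC content and exon length. DESeq2 1.42.0, RLE normalization, other filters and each library left out in turn were alternatives, and a term for the series of numbers in the column names was added after seeing the data. The fits were tested on simulated data. The genes named are all members, the changed genes of each list with the largest log2 fold changes (up to 4), Rac1 and Rac2, and the 3 genes most like 5 of the members. Nox1 and Duoxa1 are named for their levels. One further partner of the oxidase is not reported here. Overlap of exons was checked for the members. Tables were handled with pandas 2.3.3 and drawn with matplotlib 3.10.9.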

Additional observations from a re-analysis of the deposited data

How the results depend on the processing

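Of 540 pairs of a member and an alternative analysis, 491 kept direction and side of the threshold, 25 lost the call, 23 gained one and 1 reversed (Cybb in MSC+RAW-TW against MSC, 0.12 with the GC and length trends removed). The cause of these moves was not tested, except that fewer samples leave fewer degrees of freedom. In OVX against sham, 2193 genes changed. The count was 4144 with every library as its own replicate, 3386 by DESeq2, 3380 with no filter on low counts, 1419 past a fold change of 2, and 1047 with the trends removed, where 37.2% of the changed genes were higher in place of 55.4%. Leaving out a library gave between 309 genes (OVX replicate 2 left out) and 3376 (sham replicate 1 left out), with 742 without OVX replicate 1 and 1357 without OVX replicate 3, and between 1 and 6 members in place of 6 (1 without OVX replicate 2, 3 without OVX replicate 1). With the replicate number as a block, 6318 genes and 7 members changed. That block, and the check of the pairing, count sham replicates 2 and 3, elsewhere 1 sample, as 2 samples. Same-numbered libraries correlated by 0.54, -0.07 and 0.55 (deviations from the group means), and libraries of different numbers by between -0.64 and 0.54. These values do not decide whether the numbers mark pairs, and the numbers were not taken as pairs. The block added Sod1 (-0.36, adjusted p = 0.0328) to the members called. In the MSC libraries a block by replicate number could not be fitted, since their columns carry no replicate numbers shared by all groups, and the number series was used as a term in its place.

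In MSC+RAW-LPS-TW against MSC, 4286 genes and 3 members changed. The count was 2243 genes past a fold change of 2, and 5 members with every library as its own replicate (5208 genes) and also with the number series as a term (5329 genes). Leaving out a library gave between 2759 (without MSC replicate 1) and 5157 genes, and between 3 and 6 members, with 6 without MSC+RAW-LPS-TW replicate 3. In MSC+RAW-LPS-TW versus MSC+RAW-TW, 8234 genes and 6 members changed, and the alternatives gave between 5624 and 10989 genes and between 6 and 9 members. In MSC+RAW-TW against MSC, 5862 genes changed, with 9312 when every library was its own replicate, 9280 with the number series as a term and 3360 at a fold change of at least 2, where 4 members passed in place of 9. With the trends removed 4203 genes changed, of which 59.1% were higher in place of 48.4%. Leaving out a library gave between 3587 (without MSC replicate 2) and 8113 genes, and between 5 and 9 members, with 5 without MSC replicate 2. Depth limits Nox4, which had at most 106 counts in a library.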
